A study of Homo sapiens with 18 samples.

Results

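BRM014 was compared with DMSO in SK-N-DZ cells over 4 of the 18 samples of the series, 2 libraries per group. SK-N-DZ is an established human neuroblastoma line that carries an amplified MYCN gene. All 4 samples were SK-N-DZ cells of genotype WT, grown in DMEM with serum and exposed for 2 h to 500 uM 4-thiouridine (4sU), a nucleoside that cells take up and build into RNA. The treated group received 1 uM BRM014, which blocks the ATPase activity of SMARCA4 and SMARCA2, and the control group DMSO. The sources used here do not give the time of exposure to BRM014. The other samples include the same comparison in IMR-32 and KELLY, also MYCN-amplified neuroblastoma lines of genotype WT. These were given the same 1 uM BRM014 or DMSO and 4sU. Their changes are given below only where SK-N-DZ is set against them. Engineered IMR-32 cells (SMARCA4-mAID) received 500 uM auxin or ethanol, and the same 4sU. All of these libraries with 4sU also shared in the gene filter and in the spread behind every p-value for SK-N-DZ. Because 4sU enters RNA as it is made, and iodoacetate marks it chemically, the deposited counts stand for newly made RNA. Each file lists 28063 genes, all of which belong to the comparison. Of these, 12853 had enough counts to be tested, and 15210 did not, among them 10675 without a single count in the 4 libraries.

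SMARCA4 (BRG1) and SMARCA2 (BRM) are the alternative motors of the SWI/SNF complexes, which use ATP to slide and evict nucleosomes and so keep enhancers and promoters accessible. Neuroblastoma arises from sympathoadrenal precursors of the neural crest. Its adrenergic state is held by a circuit of transcription factors, among them HAND2, GATA3, ISL1, TBX2 and MYCN, that bind their own and each other's enhancers, and it is marked by the enzymes that make noradrenaline.

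Gene counts summed to 1589230 and 1740475 in the DMSO libraries and to 724913 and 758288 in the BRM014 libraries, so that the treated group was the shallower one. All 14 neuroblast markers were detected with DMSO. Their summed level was 4453 and 4316 CPM with DMSO and 5902 and 6486 with BRM014. Of these markers 6 were called higher and 4 lower with BRM014, and TH held no count with it. CPM are counts normalized to the scaled sum of tested genes in each library. Of 34 markers of Schwann, endothelial, fibroblast and immune cells, 5 had enough counts to be tested and 14 were at 0 in all 4 libraries. Their summed level was 119 and 106 CPM with DMSO and 98.4 and 80.8 with BRM014. In RNA from whole cultures, fewer cells of a type and less RNA per cell cannot be told apart. Unlabelled KELLY libraries, the control for background, held 5395 and 4432 counts in all. Whether both libraries of a group stem from different cultures is not said in the labels. The p-values rest on a spread between libraries of a group that was shared over the 16 libraries with 4sU in 8 groups. It was not taken from these 4 libraries alone, and it may be technical.

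SMARCA4 itself (chromosome 19, 10960825 to 11079426, plus strand; positions are on GRCh38 from GENCODE 29) stood at 164 and 145 CPM with DMSO and 108 and 129 with BRM014. The log2 change of -0.38 ± 0.16 (SE) was not called (adjusted p = 0.0778). SMARCA2 was near 0 in every library, at 0.599 and 2.75 CPM with DMSO and 3.99 and 0 with BRM014, so that no change of it was detectable at this depth. Counts of RNA do not measure the ATPase activity that BRM014 blocks. Among the 27 tested subunits of the complexes 5 rose and 2 fell, with a median of 0.05. Those that fell numbered 0 without BRM014 replicate 1, 4 without BRM014 replicate 2 and 1 without either DMSO library. ARID2, a subunit of the PBAF complex, was at 263 and 262 CPM with DMSO and 613 and 534 with BRM014, a change of 1.13 (adjusted p = 6.72e-13). BICRAL, a subunit of the non-canonical complex, went from 69.5 and 78.2 to 261 and 253 CPM (1.79, adjusted p = 3.93e-12), and ARID1B, a subunit of canonical BAF, from 200.04 and 191 to 299 and 322 (0.67, adjusted p = 0.000108). For all 3 the BRM014 libraries lay above the DMSO libraries. Corrected for transcript composition, as described below, 8 subunits rose and none fell, and SMARCA4 itself stood at a positive log2 change of 0.34 (adjusted p = 0.153), not called either.

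With BRM014, 1270 genes rose and 1228 fell at an adjusted p below 0.05, which is 9.88% and 9.55% of the 12853 tested, or 19.4% together. These shares are the background for the counts of each gene list below. In CPM both BRM014 libraries lay above both DMSO libraries in 25.7% of all genes tested and below them in 30.6%. Genes of the lists below were named by small p, which favours such a gap. The largest changes were picked from called genes with a mean of at least 50 counts in the higher group. Both BRM014 libraries also had to lie beyond both DMSO libraries in CPM. Among these genes the largest rise was that of CDH10. CDH10, a classical cadherin (chromosome 5, 24487100 to 24644978, minus strand), was at 2.99 and 2.75 CPM with DMSO and 50.5 and 89.7 with BRM014, a log2 change of 4.57 ± 0.70 (SE). ESRRG, the orphan nuclear receptor ERR-gamma (chromosome 1, 216503246 to 217137755, minus strand), went from 5.39 and 8.81 to 112 and 107 CPM, a change of 3.92 ± 0.32 (adjusted p = 1.21e-22). The Wnt antagonist DKK1 (chromosome 10, 52314296 to 52318042, plus strand) was at 10.2 and 20.9 CPM with DMSO and at 183 and 189 with BRM014 (3.56 ± 0.21, adjusted p = 8.78e-30). Both treated libraries stood above both controls in all 3 genes, which the choice of genes required. In CDH10 the treated libraries differed from each other by more than the controls did. FAT4, a giant cadherin of planar polarity, rose by 3.77 on the log2 scale. PLK2, a Polo-like kinase and p53 target, went from 56.3 and 50.7 to 366 and 397 CPM (2.83), and NEK7, a kinase of mitosis and of the inflammasome, from 51.5 and 47.9 to 314 and 297 (2.62 ± 0.17, adjusted p = 7.52e-25). The calls of these 6 genes held with any 1 of the 4 libraries left out. The number of genes called fell from 2498 to 1648 without BRM014 replicate 1 and to 1622 without DMSO replicate 2.

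With the same minimum of 50 counts and the same separation of libraries, several of the largest falls took genes to near 0. RET, the receptor tyrosine kinase of the GDNF family (chromosome 10, 43077027 to 43130351, plus strand), was at 99.4 and 138 CPM with DMSO, 416 counts in all, and at 1.33 and 1.26 with BRM014, 2 counts in all. That is a ratio of 92.1, with an exact 95% interval of 25.3 to 763 that covers counting error only. KIF26A, a kinesin-like protein that damps RET signalling, held 288 counts with DMSO and 2 with BRM014, a 63.8-fold ratio with an interval of 17.5 to 529. PGF, placental growth factor (chromosome 14, 74941834 to 74955784, minus strand), fell from 197 and 208 to 3.99 and 6.32 CPM (-5.26 ± 0.60, adjusted p = 3.63e-19). CDKN1A, the gene of the CDK inhibitor p21 (chromosome 6, 36676460 to 36687339, plus strand), fell from 155 and 121 to 0 and 8.84 CPM (-4.90 ± 0.66, adjusted p = 3.08e-15). IGFBP4, which binds insulin-like growth factors, fell from 86.8 and 88.7 to 0 and 5.05 CPM (-5.03). AHNAK, a very large scaffold protein, fell from 231 and 235 to 18.6 and 11.4 CPM (-3.96 ± 0.37, adjusted p = 1.89e-20). MEG3, an imprinted long non-coding RNA, fell from 83.8 and 93.6 to 0 and 7.58 CPM (-4.48). No treated library reached a control library for any of these genes, which was a condition of their choice. CDKN1A, IGFBP4, KIF26A and MEG3 each had 1 BRM014 library at 0, so that their fitted changes depend on the libraries used. Over the alternative settings the fitted change of CDKN1A ranged from -10.5 to -3.95, of IGFBP4 from -9.87 to -4.10, of KIF26A from -9.79 to -4.88 and of MEG3 from -9.88 to -3.54.

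**Figure D1:**
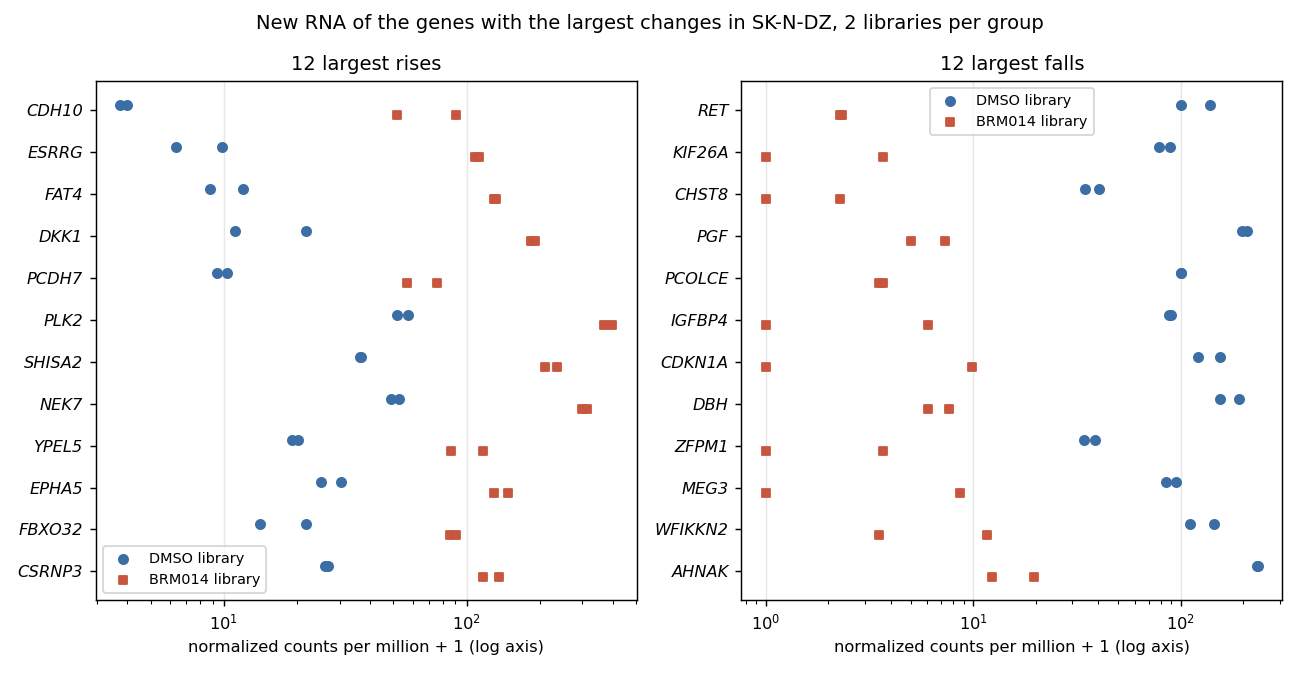
New RNA of the 12 called genes with the highest and the 12 with the lowest log2 change among those with a mean of at least 50 counts in the higher group, as CPM + 1 on a log axis, with 1 point per library. The choice of genes required both BRM014 libraries (squares) to lie apart from both DMSO libraries (circles). Several treated libraries in the right panel sit at 0 CPM.

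Among genes with many counts, shifts were smaller and tight between libraries. SOX11, a factor of neural precursors, was at 883 and 858 CPM with DMSO and 1862 and 1964 with BRM014 (1.14 ± 0.089, adjusted p = 4.83e-19). SESN3, a sestrin that restrains mTORC1, went from 474 and 467 to 2168 and 1982 CPM (2.14 ± 0.11, adjusted p = 2.84e-30). SKIL, an inhibitor of Smad signalling, went from 571 and 599.8 to 1584 and 1598 (1.44), and ELAVL4, a neuronal RNA-binding protein, from 446 and 466 to 1139 and 1077 (1.28). These 4 genes rose, and no overlap between groups was a condition of their choice. RNR2, the mitochondrial 16S ribosomal RNA by its RefSeq synonym, was at 6637 and 6606 CPM with DMSO and 1126 and 1156 with BRM014 (-2.54 ± 0.12, adjusted p = 1.18e-31). It made up 0.697% and 0.689% of the gene counts of the DMSO libraries and 0.117% and 0.121% of those of the BRM014 libraries. CCND1, the cyclin D that drives G1, went from 1897 and 1899.7 to 916 and 897 CPM (-1.07 ± 0.079, adjusted p = 2.4e-20). HSPA8, TUBA1B and GAPDH fell by 1.26, 1.15 and 1.32 on the log2 scale. The last 3 have near-identical copies or pseudogenes, between which counting could have split reads.

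The log2 changes moved with the base composition of the transcript, and this touches every gene group below. In the fifth of genes with the lowest GC share (27.3% to 40.5% of the longest transcript) the median change was 0.33, with 25.3% of genes called higher and 2.48% called lower. In the fifth with the highest GC share (57.2% to 75.3%) the median was -0.59, with 0.640% called higher and 20.03% lower. The medians of the same end groups were 0.21 and -0.44 in IMR-32 and 0.19 and -0.37 in KELLY. Between the 2 DMSO libraries they were -0.02 and 0.10, and between the 2 BRM014 libraries -0.07 and 0.09. These replicate ratios were taken from CPM with 2 added, unlike the fitted changes. The part of base composition in the changes was not tested. After a correction for transcript GC share and length, made on the 12505 genes with a transcript, 978 rose and 791 fell (7.82% and 6.33%). Of the 2498 genes called, 1306 were called in the same direction with it and 1 in the opposite direction. Counts of a gene group under this correction are given beside it as corrected counts.

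**Figure D2:**
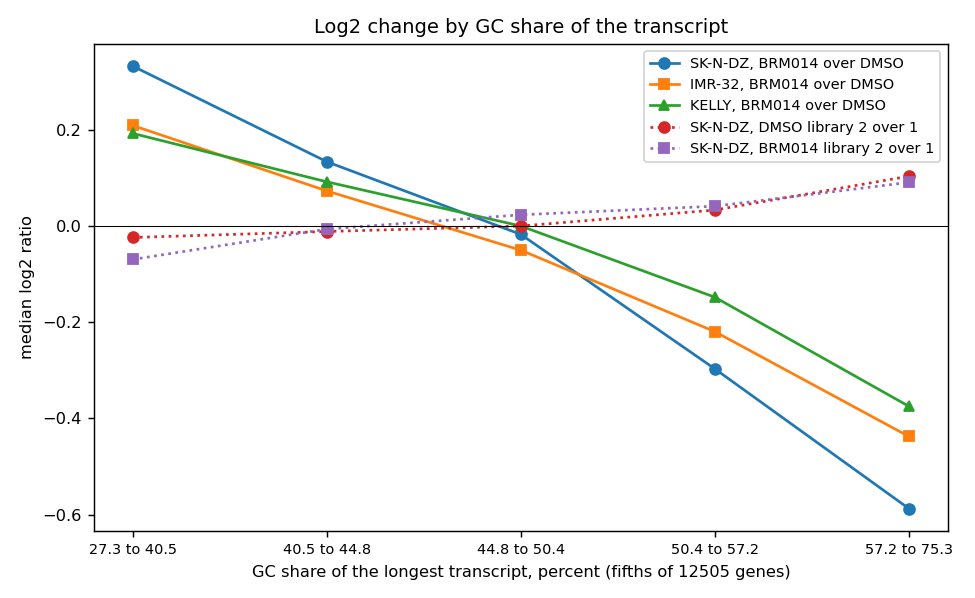
Median log2 ratio in 5 equal groups of genes ordered by the GC share of the longest transcript (x axis, percent), for BRM014 over DMSO in the 3 lines (solid) and between replicate libraries of SK-N-DZ (dotted). The SK-N-DZ line falls from 0.33 to -0.59 while the line for the 2 DMSO libraries runs from -0.02 to 0.10. The line for the 2 BRM014 libraries runs from -0.07 to 0.09. Ratios between replicates were taken from CPM with 2 added, unlike the fitted changes.

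Cell cycle genes split by phase. Of 50 tested genes of DNA replication, 37 fell and none rose, with a median log2 change of -0.95 against -0.04 over all genes tested. Of 47 tested genes of mitosis, 24 rose and none fell, with a median of 0.49. In the E2F pathway, activator E2F factors bind promoters of replication genes at the start of S phase, while mitotic genes are held back by the DREAM complex through cell cycle homology regions (CHR) and switched on later by B-MYB and FOXM1. The promoters of 3 replication genes and 3 mitosis genes of small p that hold the words searched for are printed to show these words and where they lie. Each runs from 250 bases before the RefSeq start to 30 bases from the start on, on the gene's strand (GRCh38.p14). Capitals mark E2F words (TTTGGCGC, TTTCGCGC, TTTCCCGC or TTTGCCGC) in the first 3 and CHR words (TTTGAA or TTCGAA) in the last 3, on either strand. Both words of MCM2 overlap. The promoter of CDK1 also holds 1 E2F word, beginning 19 bases after the start, which is left in lower case.
UHRF1 (chr19:4909251-4909530, plus strand): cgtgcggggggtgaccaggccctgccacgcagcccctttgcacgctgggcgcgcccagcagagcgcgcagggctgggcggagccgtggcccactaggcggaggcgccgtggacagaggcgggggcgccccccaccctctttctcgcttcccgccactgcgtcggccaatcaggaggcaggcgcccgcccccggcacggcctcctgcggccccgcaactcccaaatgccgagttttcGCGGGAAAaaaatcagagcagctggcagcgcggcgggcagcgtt
MCM3 (chr6:52284713-52284992, minus strand): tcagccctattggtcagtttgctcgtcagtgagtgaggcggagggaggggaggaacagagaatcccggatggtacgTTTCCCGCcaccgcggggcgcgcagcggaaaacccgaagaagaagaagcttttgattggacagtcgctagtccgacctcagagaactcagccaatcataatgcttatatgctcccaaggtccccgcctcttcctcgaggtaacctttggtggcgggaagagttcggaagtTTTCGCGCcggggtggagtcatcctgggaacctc
MCM2 (chr3:127598161-127598440, plus strand): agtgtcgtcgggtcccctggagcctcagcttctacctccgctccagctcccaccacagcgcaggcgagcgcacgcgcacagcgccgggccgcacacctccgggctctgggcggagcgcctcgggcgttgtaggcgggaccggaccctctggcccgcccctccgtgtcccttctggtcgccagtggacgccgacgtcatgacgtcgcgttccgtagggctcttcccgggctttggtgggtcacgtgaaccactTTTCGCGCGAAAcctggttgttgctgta
ASPM (chr1:197146640-197146919, minus strand): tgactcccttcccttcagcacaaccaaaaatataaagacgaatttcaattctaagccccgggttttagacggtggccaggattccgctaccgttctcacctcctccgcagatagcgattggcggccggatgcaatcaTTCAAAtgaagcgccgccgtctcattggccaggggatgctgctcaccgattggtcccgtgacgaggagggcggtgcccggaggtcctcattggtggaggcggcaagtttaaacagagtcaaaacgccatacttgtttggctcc
CDK1 (chr10:60778081-60778360, plus strand): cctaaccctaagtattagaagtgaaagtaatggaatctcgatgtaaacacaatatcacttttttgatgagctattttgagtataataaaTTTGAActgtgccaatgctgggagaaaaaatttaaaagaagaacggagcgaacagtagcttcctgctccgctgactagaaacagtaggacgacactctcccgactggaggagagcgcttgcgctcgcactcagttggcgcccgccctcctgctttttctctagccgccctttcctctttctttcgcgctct
TOP2A (chr17:40417867-40418146, minus strand): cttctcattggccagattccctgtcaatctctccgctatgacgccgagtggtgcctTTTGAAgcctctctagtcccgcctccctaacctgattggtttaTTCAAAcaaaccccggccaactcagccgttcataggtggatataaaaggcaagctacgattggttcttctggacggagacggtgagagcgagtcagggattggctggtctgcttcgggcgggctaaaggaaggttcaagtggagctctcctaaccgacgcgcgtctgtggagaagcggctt
UHRF1 maintains DNA methylation at the fork, MCM3 and MCM2 are subunits of the replicative helicase, ASPM organizes spindle poles, CDK1 is the mitotic kinase and TOP2A untangles sister chromosomes. An E2F word stood in 23 of the 44 replication genes with a RefSeq promoter (52.3%), in 3 of the 41 mitosis genes (7.32%) and in 3.15% of all 27305 promoters. A CHR word stood in 31 of the 41 mitosis promoters (75.6%), in 3 of the 44 replication promoters (6.82%) and in 15.8% of all promoters. CCAAT, the word bound by NF-Y, stood in 78.0%, 54.5% and 34.7% of these sets. Among the promoters of all genes tested, 5.16% held an E2F word and 10.6% a CHR word. Over all genes called higher these shares were 3.12% and 13.4%, and over all genes called lower both were 8.31%. A match in these letters is a description of the promoter, not of a bound site. The shares of the 2 lists count every member with a promoter, called or not. They describe how the lists were made up and test nothing about BRM014.

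Replication genes fell in all 4 of their roles. Of 17 tested genes of licensing and the helicase, 15 fell (median -1.35). MCM3 was at 357 and 342 CPM with DMSO and 90.4 and 133 with BRM014 (-1.64 ± 0.16, adjusted p = 5.64e-15). MCM2 was at 323 and 341 and 98.4 and 124 (-1.58), MCM6 at 175 and 156 and 33.2 and 63.2 (-1.77) and MCM4 at 325 and 377 and 150.2 and 155 (-1.20). UHRF1 went from 261 and 272 to 45.2 and 61.9 CPM (-2.31 ± 0.22, adjusted p = 2.05e-16). The groups did not overlap for any of these 5 genes. Of 10 genes of chromatin assembly and S-phase regulation, 9 fell, among them the activator E2F1 itself, from 339.6 and 377 to 110.3 and 150.3 CPM (-1.46 ± 0.18, adjusted p = 1.89e-10), and its relative E2F2 (-1.25, adjusted p = 3.11e-09). Of 17 polymerase and fork genes, 9 fell, among them PCNA, the sliding clamp, from 274 and 279 to 144 and 112 CPM (-1.11, adjusted p = 8.36e-08), and CLSPN, the checkpoint adaptor claspin (-1.13). Of 6 genes that supply nucleotides, 4 fell, among them RRM2, the small subunit of ribonucleotide reductase, from 468 and 499.6 to 278 and 307 CPM (-0.73 ± 0.11, adjusted p = 3.2e-07). Without BRM014 replicate 1, 28 genes of the whole list fell, 5 of them polymerase and fork genes and 1 a nucleotide gene, and without DMSO replicate 1 there were 2 nucleotide genes. With the composition correction 26 of the 50 fell, 14 of them in licensing, 4 among polymerases, 6 in chromatin assembly and S-phase regulation and 2 in nucleotide supply. E2F1 and E2F2 then fell by 0.66 and 0.69.

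Mitotic genes rose in each of their roles. Among cyclins and mitotic kinases 6 of 10 rose. CDK1 was at 186 and 167 CPM with DMSO and 347 and 328 with BRM014 (0.94 ± 0.13, adjusted p = 3.5e-08). CCNB1, the B cyclin that activates it, was at 323 and 376 and 509 and 523 (0.56, adjusted p = 0.000161), and AURKA, the spindle pole kinase, at 175 and 138 and 272 and 259 (0.76, adjusted p = 0.000179). At the kinetochore 7 of 12 rose, among them the checkpoint kinases TTK, from 77.9 and 79.9 to 164 and 163 CPM (1.05), and BUB1, from 56.9 and 67.2 to 130.3 and 124 (1.03). Of 16 spindle and motor genes 9 rose, among them ASPM, from 263 and 252 to 552 and 459.7 CPM (0.97 ± 0.12, adjusted p = 1.12e-10), and HMMR, from 44.9 and 52.9 to 142 and 117 (1.40). Of 9 genes of chromosome structure and division 2 rose, TOP2A from 516 and 482 to 825 and 818 CPM (0.72, adjusted p = 7.06e-08) and ECT2, which sets the cleavage plane, from 107 and 123 to 238 and 191 (0.89). In each of these genes both treated libraries were above both controls. The kinetochore count was 4 without BRM014 replicate 1 and 4 without DMSO replicate 2. The median GC share of the transcripts was 41.8% for mitosis and 48.9% for replication, against 47.4% over all genes tested with a transcript, and with the correction 18 mitosis genes rose and 1 fell, with 4 higher at the kinetochore and 6 among spindle and motor genes.

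In IMR-32 and KELLY the replication genes lay below 0 too, with medians of -0.80 and -0.50, while the mitosis medians were -0.14 and -0.18. The change in SK-N-DZ minus the mean change in the other 2 lines was tested in one model. That difference was called for 424 genes, 199 upward and 225 downward (1.55% and 1.75% of those tested, 3.30% together). It was upward for 20 of the 47 mitosis genes and downward for none, and downward for 6 of the 50 replication genes. ASPM stood at -0.10 in IMR-32 and -0.19 in KELLY, a difference of 1.11 (adjusted p = 1.06e-08), and CDK1 at 0.18 and -0.24 (0.97, adjusted p = 1.39e-05). With the composition correction the difference was upward for 17 mitosis genes, against 1.61% of all genes upward and 1.39% downward. For replication it was downward for 6 with or without it, 5 of them in licensing, such as MCM3 (-0.82 in IMR-32, -0.69 in KELLY, difference -0.88, adjusted p = 0.00101). Without BRM014 replicate 1 of SK-N-DZ the difference was upward for 13 mitosis genes and downward for 2 replication genes, and that of MCM3 was not called (adjusted p = 0.1). Without DMSO replicate 2 of SK-N-DZ the difference was called for 249 genes in all.

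**Figure D3:**
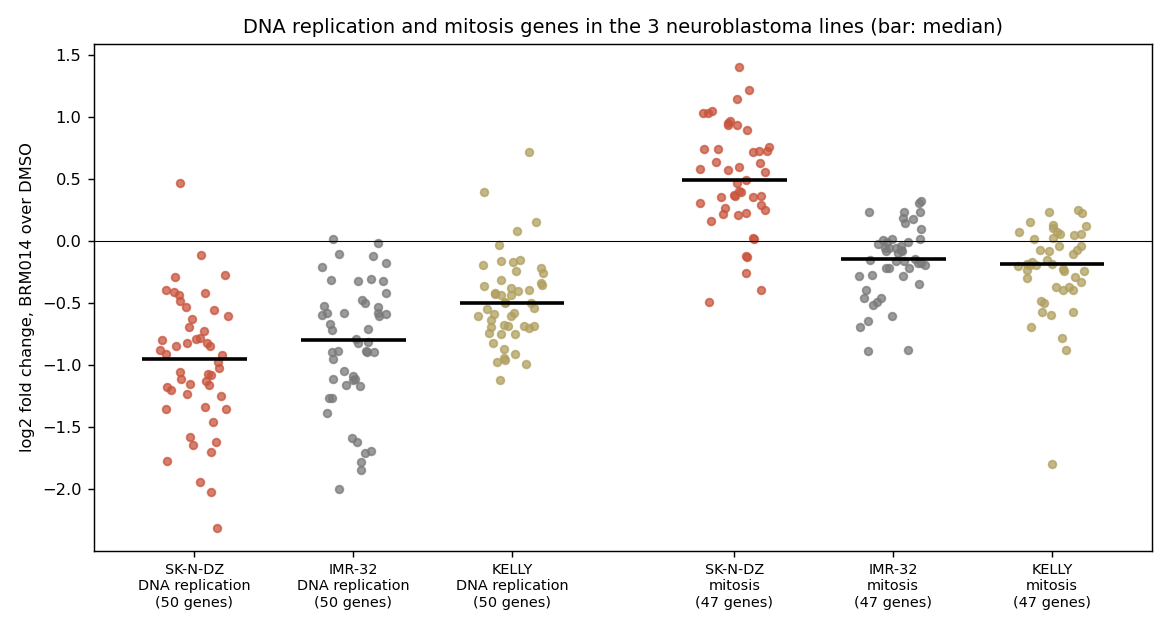
Log2 change of BRM014 over DMSO for each tested gene of DNA replication (50 genes) and mitosis (47 genes) in the 3 lines, with a bar at the median. In SK-N-DZ the replication median is -0.95 and the mitosis median 0.49, while in IMR-32 and KELLY the mitosis medians are -0.14 and -0.18.

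Of 12 tested regulators of G1, 1 rose and 5 fell, with a median of -0.27. The gene that rose was CDKN1B, which encodes the inhibitor p27 (0.36, adjusted p = 0.0447), and it was called with BRM014 replicate 2 left out but with no other library left out. CCND1 and CDKN1A are given above, and CCND3, another D cyclin, fell from 63.5 and 57.3 to 22.6 and 6.32 CPM (-2.07 ± 0.47, adjusted p = 0.000266), a call lost without BRM014 replicate 2 (adjusted p = 0.0558). Without either BRM014 library 3 of these genes fell. Of 22 tested p53 targets 2 rose and 6 fell, with a median of -0.69, or 2 and 8 with the correction. PLK2 and TP53INP1, which promotes cell death and autophagy, rose, the latter from 163 and 126 to 265 and 312 CPM (1.00, adjusted p = 2.99e-07). CDKN1A, AEN, a nuclease of apoptosis, and PHLDA3, an inhibitor of AKT, fell. AEN was at 645 and 589 CPM with DMSO and 251 and 349.9 with BRM014 (-1.04 ± 0.12, adjusted p = 6.21e-11). PHLDA3 went from 40.1 and 28.6 to 1.33 and 7.58 (-2.90, adjusted p = 6.54e-05). In the BCL2 family 1 of 14 rose and 2 fell, or 1 without BRM014 replicate 1 or DMSO replicate 2 and 1 with the correction. The death factor PMAIP1 (NOXA) was at 89.8 and 73.8 CPM with DMSO and 165 and 141 with BRM014 (0.90, adjusted p = 8.93e-05). The survival factor BCL2 was at 151 and 171 and 90.4 and 85.9 (-0.87, adjusted p = 0.00121), again with no overlap of the groups.

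The adrenergic transcription factors did not move as a block. Of 13 tested factors of the core circuit 4 rose and 6 fell (median -0.28), while of 23 further adrenergic factors 15 rose and 1 fell (median 1.02). MYCN (chromosome 2, 15940564 to 15947007, plus strand) was at 5956 and 6248 CPM with DMSO and 8138 and 8409 with BRM014, a log2 change of 0.44 ± 0.062 (adjusted p = 2.69e-08). GATA3 rose from 1348 and 1224 to 1864 and 1977 CPM (0.58, adjusted p = 1.35e-06) and ISL1 from 469 and 421 to 589 and 676 (0.51, adjusted p = 0.000185). TBX2 (chromosome 17, 61399896 to 61409466, plus strand) fell from 1285 and 1487 to 392 and 469 CPM (-1.69 ± 0.12, adjusted p = 1.27e-21), and GATA2 from 893 and 936 to 328 and 370.1 (-1.39 ± 0.12, adjusted p = 1.48e-17). HAND2 was at 745 and 679 CPM with DMSO and 714 and 917 with BRM014, overlapping groups, and was not called (0.20, adjusted p = 0.165), though it was without BRM014 replicate 1 (0.36, adjusted p = 0.0202). PHOX2A, which switches on noradrenaline synthesis, fell from 814 and 858 to 447 and 543 CPM (-0.76, adjusted p = 1.19e-07). The composition correction turned the core count to 6 higher and 2 lower. Under it PHOX2A stood at 0.21 (adjusted p = 0.251) and HAND2 at 0.81 (adjusted p = 7.76e-11), while TBX2 and GATA2 still fell, by 0.95 and 0.70. MYCN then stood at 0.99 and GATA3 at 0.97, both larger than without it. MYCN overlaps its antisense gene MYCNOS, and PHOX2A the neighbouring gene INPPL1, so that reads without strand could come from either. The unlabelled KELLY libraries held 46 counts of MYCN and 42 of PHOX2A.

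Among the further factors ESRRG, SOX11 and ELAVL4 are given above. ELAVL4 is counted in this list though it is an RNA-binding protein and no transcription factor, and it is a neuroblast marker too. SIX3, a homeobox factor of the forebrain and eye, was at 76.7 and 61.1 CPM with DMSO and 278 and 297 with BRM014 (2.06 ± 0.17, adjusted p = 1.33e-17). MEIS1, a homeobox partner of PBX proteins, was at 169 and 157 and 445 and 441 (1.44, adjusted p = 7.46e-19), SOX4 at 234 and 265 and 552 and 615 (1.23, adjusted p = 2.42e-16) and RUNX1T1, a corepressor, at 238 and 240.2 and 585 and 669 (1.39, adjusted p = 2.73e-16). HEY1, a Notch target listed here too, went from 25.8 and 29.2 to 74.4 and 117 CPM (1.80, adjusted p = 8.11e-06). The libraries of the 2 groups did not overlap for any of these 5 genes, and 15 further factors rose with the correction as well. The factor that fell, LMO1, named after its values were seen, was not called without BRM014 replicate 1. Genes of the mesenchymal state, the alternative identity of neuroblastoma cells, changed in both directions, 2 higher and 3 lower of 18. ZEB2 went from 13.2 and 12.1 to 54.5 and 54.3 CPM (2.10 ± 0.36, adjusted p = 2.14e-06) and SOX9, near 0 in the controls, reached 12 and 8.84. SNAI1 fell from 149 and 179.6 to 25.3 and 63.2 (-1.88 ± 0.27, adjusted p = 1.22e-08). With the correction 3 rose and 1 fell.

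**Figure D4:**
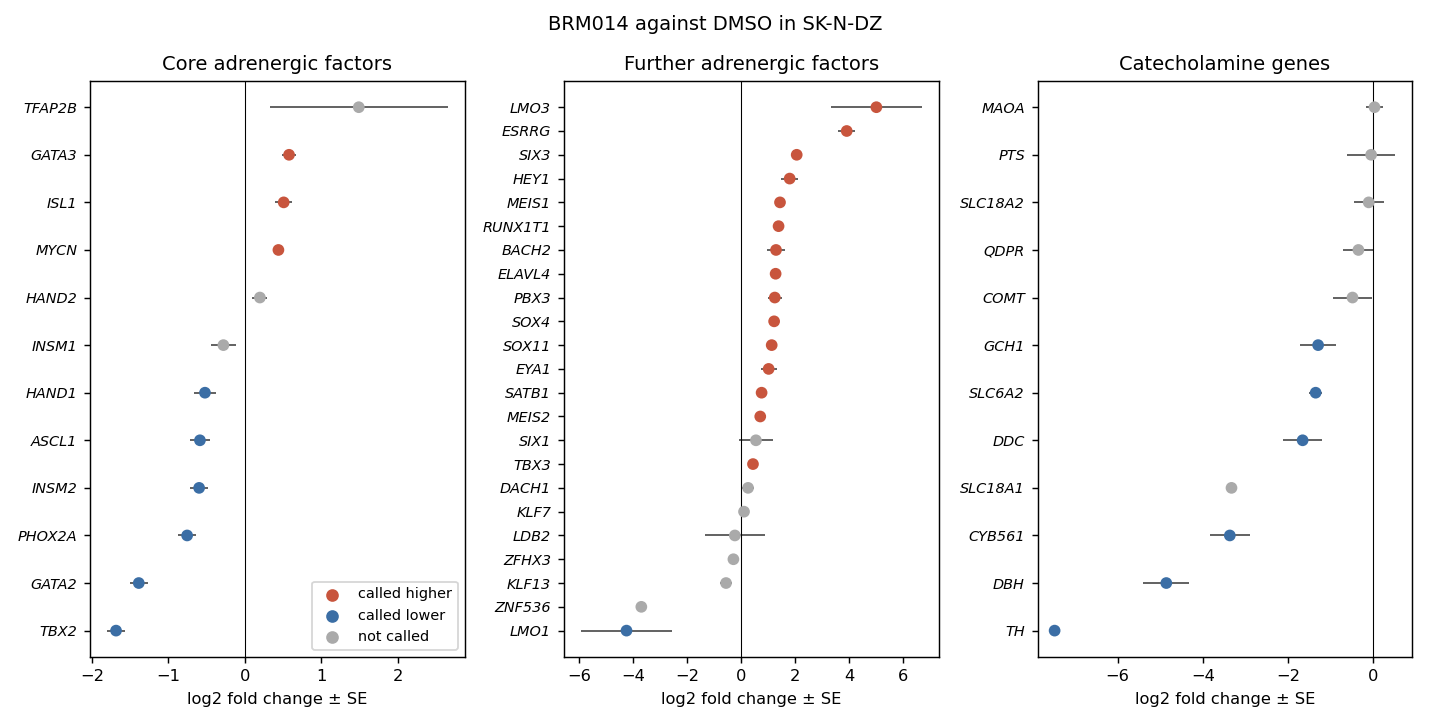
Log2 change (± SE) of core adrenergic factors (not all are shown), further adrenergic factors and catecholamine genes tested in SK-N-DZ, coloured by call. TH, SLC18A1 and ZNF536 had no count in a group and carry no error bar, so that their positions are fitted values and no bounds; of the catecholamine genes 6 fell and none rose.

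Of 12 tested catecholamine genes 6 fell and none rose, with a median of -1.32, or -0.89 with genes at 0 counts set to their bound. DBH, the enzyme that makes noradrenaline (chromosome 9, 133635348 to 133659344, plus strand), was at 154 and 189 CPM with DMSO and 6.65 and 5.05 with BRM014 (-4.86 ± 0.54, adjusted p = 1.48e-17). It overlaps the antisense gene DBH-AS1, and its reads could come from either strand. TH, the rate-limiting enzyme of the pathway, held 59 counts with DMSO and none with BRM014, which makes it at least 8.71-fold lower when the treated group is set to a floor of 3 counts in all (adjusted p = 5.12e-05). CYB561, which keeps ascorbate reduced inside the granule for DBH, fell from 69.5 and 66.1 to 6.65 and 6.32 CPM (-3.37 ± 0.46, adjusted p = 1.45e-13). SLC6A2, the noradrenaline transporter, fell from 416 and 470.4 to 109 and 236 CPM (-1.35 ± 0.16, adjusted p = 3.94e-11). MAOA, which breaks catecholamines down, was at 208 and 209 CPM with DMSO and 226 and 199.6 with BRM014 (0.028 ± 0.20, adjusted p = 0.964), groups that overlapped. The vesicular transporter SLC18A2 was not called either (-0.11 ± 0.35).

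Of 34 tested genes of secretory granules and synaptic vesicles 3 rose and 6 fell. SCG2, a granin stored with catecholamines, fell from 216 and 189 to 75.8 and 49.3 CPM (-1.70 ± 0.22, adjusted p = 4.83e-10), and CPLX2, which clamps vesicle fusion, from 163 and 149 to 61.1 and 45.5 (-1.55, adjusted p = 1.72e-09). GAL, the neuropeptide galanin, held 50 counts with DMSO and 2 with BRM014, a 11.1-fold ratio with a 95% interval of 2.91 to 94. Of 22 vesicle fusion genes, CPLX2 included, 3 rose and 3 fell, or 3 and 1 with the correction. SYT4 and SYT1 were among those that rose. SYT4 was at 119 and 93.1 CPM with DMSO and 300.4 and 250.1 with BRM014 (1.38 ± 0.16, adjusted p = 3.88e-11) and SYT1 at 473 and 486 and 821 and 731 (0.69, adjusted p = 1.01e-07). With the correction 3 rose and 3 fell.

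Receptor tyrosine kinases and the co-receptors of the GDNF family fell or were not called. Of 19 tested, 7 fell and none rose, with a median of -0.93, and 3 fell without BRM014 replicate 1 and 5 with the correction. RET is given above. DDR2, a collagen receptor, fell from 94.6 and 74.4 to 43.9 and 49.3 CPM (-0.85 ± 0.21, adjusted p = 0.000707). GFRA2, a co-receptor of RET, was at 379 and 456 CPM with DMSO and 362 and 361 with BRM014, not called (-0.21 ± 0.14, adjusted p = 0.334). Downstream of these receptors, 14 genes of ERK output and feedback were tested, of which 3 rose and 2 fell. With any 1 library left out 1 fell, and with the correction 1 rose and 1 fell. CCND1, given above, was among the 2 that fell. ETV1, an ETS factor, went from 5.39 and 5.51 to 35.9 and 42.9 CPM (2.83 ± 0.44, adjusted p = 3.97e-08).

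In the Wnt pathway, where frizzled receptors answer secreted Wnt ligands, 10 of 39 tested genes rose and 6 fell. Secreted inhibitors moved in both directions. Against the rise of DKK1, SFRP1, a decoy receptor, fell from 190.5 and 213 to 95.7 and 50.5 CPM (-1.47 ± 0.23, adjusted p = 1.26e-07). Among receptors, FZD3 went from 159 and 149.8 to 351 and 259 CPM (0.98, adjusted p = 6.74e-08) and FZD1 from 119.8 and 115 to 218 and 322 (1.20, adjusted p = 9.46e-06), while the DKK1 co-receptor KREMEN1 fell from 25.2 and 24.2 to 2.66 and 6.32 (-2.42, adjusted p = 7.82e-05). The feedback inhibitor NKD1 fell from 116 and 94.7 to 9.3 and 11.4 CPM (-3.33 ± 0.51, adjusted p = 2.4e-08) and TCF7L2, a factor that reads beta-catenin, rose from 6.59 and 6.06 to 35.9 and 24 (2.22, adjusted p = 0.000278). No library of one group reached the other in these 6 genes. Without BRM014 replicate 2, or without DMSO replicate 1, 6 Wnt genes rose. With the correction 10 rose and 4 fell.

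Of 32 genes of the BMP and TGF-beta pathway 5 rose and 8 fell, and the correction turned this to 6 and 2. The receptors BMPR2 and BMPR1A rose by 0.88 and 0.80 on the log2 scale and the inhibitory target SKIL by 1.44. ID4, a helix-loop-helix inhibitor, went from 10.2 and 29.7 to 81.1 and 73.3 CPM (1.93 ± 0.31, adjusted p = 4.53e-07) and ID2 from 479 and 459 to 711 and 750.2 (0.64, adjusted p = 3.03e-07). The decoy receptor BAMBI fell from 148 and 134 to 53.2 and 31.6 CPM (-1.74 ± 0.23, adjusted p = 7.46e-10). Without BRM014 replicate 1 only 2 genes of the pathway fell, without BRM014 replicate 2 there were 4, without DMSO replicate 1 there were 5, and without DMSO replicate 2 there were 3. Of 14 Notch genes 1 rose and 4 fell, with a median of -1.45, and 1 fell with the correction. The ligand JAG2 held 86 counts with DMSO and none with BRM014, at least 12.7-fold lower against a floor of 3 counts (adjusted p = 1.04e-05).

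Guidance and adhesion genes changed in both directions. Among 51 genes of axon guidance there were 9 that rose and 12 that fell, and with the correction 10 rose and 6 fell. SEMA3D, a secreted semaphorin, went from 1.2 and 2.75 to 47.9 and 44.2 CPM (4.46 ± 0.76, adjusted p = 2.16e-07). Its class of ligands acts through neuropilins and plexins, of which NRP2 rose from 151 and 186 to 397 and 397 (1.24, adjusted p = 2.77e-10), while PLXNA1 fell from 248 and 273 to 70.5 and 22.7 (-2.49, adjusted p = 1.67e-13) and PLXNA2 from 105 and 135 to 25.3 and 30.3 (-2.11, adjusted p = 8.93e-07). The ligand SLIT3 fell from 187 and 215 to 51.8 and 44.2 CPM (-2.07 ± 0.23, adjusted p = 3.35e-13) and its receptor family's ROBO1 rose from 35.9 and 41.3 to 97 and 173 (1.81 ± 0.22, adjusted p = 2.46e-10). UNC5B, a netrin receptor, fell from 353 and 407 to 136 and 171 (-1.31, adjusted p = 7.3e-12). In none of these 7 genes did the groups overlap, which over all genes tested held for 25.7% upward and 30.6% downward. Without BRM014 replicate 2 the guidance genes that fell numbered 7.

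Of 36 adhesion genes 10 rose and 5 fell, and 6 rose without DMSO replicate 2. With the correction 9 rose and 5 fell. Beside CDH10 and FAT4, the contactin CNTN1 went from 223 and 255 to 711 and 566 CPM (1.41 ± 0.14, adjusted p = 4.79e-14). L1CAM, which guides neurites, fell from 137 and 138 to 30.6 and 39.2 CPM (-1.97 ± 0.33, adjusted p = 1.49e-06), and DCHS1, the partner of FAT4 in planar polarity, from 426 and 432 to 167 and 205 (-1.20, adjusted p = 3.39e-09). Of 48 extracellular matrix genes 3 rose and 6 fell, and none of the 13 collagens tested was called. LAMB1, a laminin chain, fell from 115 and 129 to 21.3 and 39.2 CPM (-2.0017 ± 0.25, adjusted p = 1.68e-11). Of 51 ion channel genes 3 rose and 8 fell, among them the sodium channel SCN9A, up from 2.4 and 4.96 to 43.9 and 55.6 CPM (3.71, adjusted p = 4.93e-09), and the potassium channel KCNK3, down from 39.5 and 50.1 to 2.66 and 6.32 (-3.28, adjusted p = 6.89e-07). With the correction 2 matrix genes rose and 4 fell, and 4 channel genes rose and 5 fell. Over all genes tested 9.88% rose and 9.55% fell, or 7.82% and 6.33% with the correction. Matrix genes that rose numbered 1 without BRM014 replicate 1 and 1 without DMSO replicate 2.

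Lineage factors outside the adrenergic circuit changed gene by gene. Of 10 HOX genes 3 rose and 2 fell, or 4 and 1 with the correction. HOXD9 was at 19.2 and 21.5 CPM with DMSO and 97 and 83.4 with BRM014 (2.14 ± 0.40, adjusted p = 2.6e-05), HOXD8 at 28.7 and 45.7 and 113 and 101 (1.52, adjusted p = 0.000255) and HOXC4, of another cluster, at 44.3 and 68.3 and 16 and 15.2 (-1.85, adjusted p = 0.000256). Of 33 nuclear receptors 5 rose and 3 fell, and RARA, the retinoic acid receptor alpha, fell from 192 and 180.1 to 45.2 and 36.6 CPM (-2.18 ± 0.30, adjusted p = 4.45e-09). With the correction 3 receptors rose and 1 fell. HOX genes that fell numbered 1 without either BRM014 library and 1 without DMSO replicate 2, and receptors that rose numbered 3 without BRM014 replicate 2. Of 439 tested ZNF genes, mostly zinc finger repressors, 24 rose and 35 fell, with a median of -0.11. Both shares were below the 9.88% and 9.55% of all genes tested. With the correction 20 ZNF genes rose and 42 fell, against 7.82% and 6.33% of all genes. ZNF genes that rose numbered 11 without DMSO replicate 2, and those that fell 23 without BRM014 replicate 1, 22 without BRM014 replicate 2 and 22 without DMSO replicate 1.

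Genes of growth and biosynthesis fell or were not called. Of 78 ribosomal protein genes 31 fell and none rose (median -0.64), which was 19 without BRM014 replicate 1 and 20 with the correction. RPL10 was at 240.2 and 215 CPM with DMSO and 85.1 and 119.99 with BRM014 (-1.15 ± 0.18, adjusted p = 5.06e-07) and RPLP0 at 376 and 424 and 207 and 264 (-0.76, adjusted p = 4.35e-06). Ribosomal protein genes have many pseudogenes, and their counts are uncertain for that reason. Of 30 genes of ribosome biogenesis 12 fell and none rose, among them nucleolin (NCL), from 719.9 and 759 to 461 and 455 CPM (-0.69 ± 0.097, adjusted p = 1.74e-08), and NOP56, a core protein of box C/D particles (-0.86, adjusted p = 3.96e-07). With the correction 7 fell.

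Of 35 genes of serine, one-carbon and amino acid metabolism and of the ATF4 response 19 fell and none rose (median -0.51), which was 10 without BRM014 replicate 1 and 12 without DMSO replicate 1. The correction turned this to 14 lower and 2 higher. SLC7A5, the leucine transporter, fell from 169 and 160.3 to 58.5 and 53 CPM (-1.56 ± 0.21, adjusted p = 2.05e-09) and SLC1A5, the glutamine transporter, from 161 and 153 to 42.5 and 35.4 (-2.01, adjusted p = 1.47e-09). SHMT2, which makes one-carbon units in mitochondria, fell from 132 and 127 to 27.9 and 51.8 (-1.69, adjusted p = 7.42e-07). Of 22 glycolysis genes 10 fell and none rose (median -0.80; 9 fell with the correction), among them PKM, pyruvate kinase, from 429 and 535 to 207 and 183 CPM (-1.30 ± 0.13, adjusted p = 1.83e-14), and ENO1, enolase, from 467 and 469 to 226 and 256 (-0.96, adjusted p = 5.52e-09). In contrast, of 66 nuclear genes of the respiratory chain 2 rose and 1 fell (median 0.06). It was 1 higher without BRM014 replicate 2 or DMSO replicate 2, none lower without the latter, and 4 higher and none lower with the correction. In every gene named here the 2 groups stood apart.

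In lipid synthesis 3 of 31 genes rose and 11 fell, or 2 and 11 with the correction. SCD, which desaturates fatty acids, was at 1366 and 1309.8 CPM with DMSO and 892 and 736 with BRM014 (-0.72 ± 0.09, adjusted p = 5.86e-10) and ACLY, which supplies cytosolic acetyl-CoA, at 391 and 363 and 174 and 195 (-1.03, adjusted p = 6.66e-10). FASN, the fatty acid synthase, fell from 898 and 918 to 548 and 417 CPM (-0.91, adjusted p = 2.38e-09), but stood at -0.046 with the correction (adjusted p = 0.877), and the unlabelled KELLY libraries held 103 counts of it. Of the 9 fatty acid genes 6 fell, or 4 with the correction. Of 26 heat shock and chaperonin genes 10 fell and none rose, or 6 without BRM014 replicate 2 and 6 without DMSO replicate 2. With the correction 1 rose and 9 fell. HSP90AB1, a constitutive chaperone, went from 1310.4 and 1331 to 659 and 741 CPM (-0.91 ± 0.087, adjusted p = 6.09e-15). Of 12 polyamine genes 1 rose and 6 fell, among them ODC1, the first enzyme of the pathway and a MYC target, from 401 and 383 to 223 and 268 CPM (-0.67, adjusted p = 1.11e-05), and AMD1, from 486 and 523 to 372 and 268 (-0.66, adjusted p = 4.62e-06). With the correction 1 rose and 4 fell, and none rose without BRM014 replicate 1 or without either DMSO library.

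Of 34 Polycomb genes 5 rose and 5 fell, which became 2 and 3 with the correction, and 3 rose with any 1 library left out, while 3 fell without DMSO replicate 2. CBX2, a reader of the Polycomb mark, fell from 528 and 594 to 221 and 215 CPM (-1.37 ± 0.13, adjusted p = 6.47e-15). Of 19 genes of BET proteins and the elongation factor P-TEFb 2 rose and none fell, or 7 and 1 with the correction. AFF1, a scaffold of the super elongation complex, went from 43.7 and 36.4 to 159.5 and 201 CPM (2.17 ± 0.20, adjusted p = 2.02e-15) and its paralogue AFF4 from 280.3 and 272 to 485 and 422 (0.72, adjusted p = 1.1e-06), with the groups apart in both.

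Set against the other lines, the genes with the smallest p for the difference included ones that moved in opposite directions. MYCN was higher with BRM014 in SK-N-DZ (0.44) and stood at -0.45 in IMR-32 and -0.52 in KELLY, a difference of 0.92 (adjusted p = 1.06e-16). PLPPR4, a neuronal membrane protein, went from 35.9 and 52.3 to 132 and 106 CPM (1.42) and stood at -1.17 and -1.06 in the other lines (difference 2.53, adjusted p = 1.15e-13). ESRRG was up by 3.92, against 1.05 and 1.23 (difference 2.77, adjusted p = 2.41e-11). LMO4, a LIM-only cofactor, went from 72.5 and 109 to 340.3 and 280.4 CPM (1.77), against -0.037 and 0.061 (difference 1.76, adjusted p = 2.33e-10). RUNX1T1 had the direction of KELLY (1.36) and not of IMR-32 (-1.13), so that its difference of 1.27 (adjusted p = 1.98e-09) rests on an average of unlike values.

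In the other direction, FOXC1, a forkhead factor of neural crest and mesenchyme (chromosome 6, 1609972 to 1613897, plus strand), was at 129 and 111 CPM with DMSO and 73.1 and 88.4 with BRM014 in SK-N-DZ, not called (-0.57 ± 0.22, adjusted p = 0.0538, or 0.0467 by DESeq2). In IMR-32 and KELLY it stood at 2.29 and 3.71, a difference of -3.57 (adjusted p = 1.41e-17). BAMBI was at -1.74, against 0.80 and -0.011 (difference -2.13, adjusted p = 1.81e-09), and NCS1, a neuronal calcium sensor, fell from 292 and 275 to 105 and 106 CPM (-1.42), against -0.27 and 0.052 (difference -1.31, adjusted p = 1.21e-06). TIMP2, an inhibitor of matrix proteases, fell from 284 and 230.2 to 79.8 and 85.9 CPM (-1.63), against -0.58 and -0.10 (difference -1.29, adjusted p = 1.42e-06), with 65 counts in the unlabelled libraries. ACTG1, the cytoplasmic actin gamma, fell by 0.63, a call lost with the correction (-0.041, adjusted p = 0.828).

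Of the 199 genes with an upward difference, 168 were called higher in SK-N-DZ, and 26 of these were called lower in at least 1 other line. Their median changes were 1.00 in SK-N-DZ, -0.04 in IMR-32 and 0.06 in KELLY. Of the 225 with a downward difference, 160 were called lower in SK-N-DZ, 33 of them against a rise in at least 1 other line, and the medians were -1.04, 0.06 and 0.25. The difference itself chose these genes, so their medians describe them and test nothing.

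**Figure D5:**
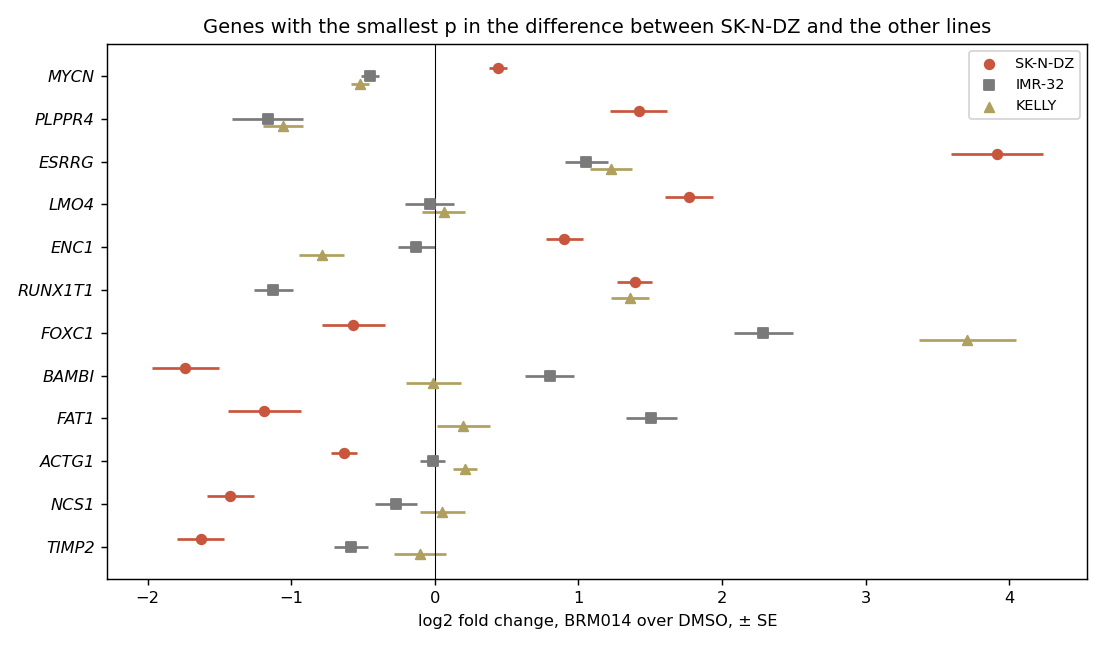
Log2 change (± SE) of BRM014 over DMSO in SK-N-DZ (circles), IMR-32 (squares) and KELLY (triangles) for the 6 genes with the smallest p for an upward and the 6 for a downward difference. MYCN lies above 0 in SK-N-DZ only, while FOXC1 lies below 0 in SK-N-DZ and far above it in both other lines.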

How the data were processed

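Each deposited file holds the raw counts per gene symbol of 1 library, which the authors made from 4sU-labelled RNA and named conversion counts. RNA was treated with iodoacetate and captured on poly(dT), per the labels' protocols. The submitters' processing notes name HISAT, HTSeq, DESeq2 and hg38 with no version and no role. The sources used here give neither the counting rule for reads nor the annotation and strandedness, so overlapping, antisense or near-identical genes are uncertain. Reads with no feature (47.7% to 51.3% in the 4 libraries) or listed as ambiguous (1.55% to 1.71%) were left out of sizes and tests.

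The counts were fitted with edgeR 4.0.16 (R 4.3.3, quasi-likelihood test, TMM scaling, filterByExpr) over the 16 labelled libraries of the series in 8 groups, with 8 residual degrees of freedom and a biological coefficient of variation of 0.143. Calls are at a Benjamini-Hochberg adjusted p below 0.05 over the 12853 genes tested, and "rose" and "fell" are used of called genes only. Log2 changes are BRM014 over DMSO and relative to the rest of a library. SE are left out where a group held no counts. The difference between lines is the SK-N-DZ change minus the mean of the IMR-32 and KELLY changes. Replicates differed by more than counting noise (chi-square per degree of freedom 2.72 and 2.86), and intervals and floors cover counting error only.

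The members and the 47 gene lists were chosen with earlier results of these data known. The rule for named genes takes the 12 highest and 12 lowest called genes with a mean of at least 50 counts, the 6 most abundant in each direction with a log2 change of at least 1, the 6 smallest p of the difference in each direction, 8 fixed genes, and up to 6 members of a list (3 of a role) with the smallest p. Not every such gene is described, and some are not reported here. Positions are from GENCODE 29 and promoters from RefSeq (GRCh38.p14). The fits were tested on simulated data. Alternatives were RLE scaling, DESeq2 1.42.0, 2 other filters, a replicate block, thinning to the shallowest library, the SK-N-DZ libraries alone and each library left out. The correction for transcript GC share and length was added after the data were seen.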

Additional observations from a re-analysis of the deposited data

Results flagged for a closer look

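The change in SK-N-DZ minus the mean change in IMR-32 and KELLY passed the test of that difference for 63 genes named in the text, 33 upward and 30 downward. Numbers in brackets are these differences on the log2 scale, and upward and downward refer to them. These differences need not match the change in SK-N-DZ itself, where SOX4 and CNTN1 rose and GFRA2 and MAOA were not called. The change of MAOA was 0.082 in IMR-32 and 2.38 in KELLY. With 2 libraries a group no library could be tested for standing apart.

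The difference was called in every alternative setting for 30 genes. Upward among them were the signalling and neuronal genes PLPPR4 (2.53), SYT4 (1.38), GFRA2 (1.87), PLK2 (1.998), NEK7 (1.03) and SESN3 (0.93), the adhesion gene FAT4 (2.02), the nuclear factors ESRRG (2.77), LMO4 (1.76), RUNX1T1 (1.27), ZEB2 (2.80), GATA3 (0.53), MYCN (0.92), SOX11 (0.46) and AFF1 (1.69), the death factor PMAIP1 (1.46), and the mitosis genes ASPM (1.11), BUB1 (1.21), CDK1 (0.97), TTK (0.98) and TOP2A (0.79). Downward were CYB561 (-3.65), FOXC1 (-3.57), AHNAK (-2.22), BAMBI (-2.13), SLIT3 (-1.43), NCS1 (-1.31), TIMP2 (-1.29), HNRNPF (-0.68) and ACTG1 (-0.73). CYB561, which serves noradrenaline synthesis, stood at 2.32 in IMR-32 and -1.76 in KELLY, so that its difference is taken from a mean of unlike values.

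For the other 33 genes the call was lost in at least 1 setting. Upward among these were CDH10 (2.87), SCN9A (2.03), KLF6 (1.00), HOXD8 (1.65), MXD1 (0.97), DKK1 (0.99), SIX3 (0.91) and MEIS1 (0.53) and the mitosis genes HMMR (1.17), ECT2 (0.79), AURKA (0.75) and CCNB1 (0.53). Downward were the replication genes UHRF1 (-1.13), MCM6 (-0.89), MCM3 (-0.88) and MCM2 (-0.85), the signalling and growth factor genes CDKN1A (-2.66), PGF (-2.31), NKD1 (-2.22) and KREMEN1 (-2.04), the catecholamine genes MAOA (-1.20) and SLC6A2 (-0.65), the factors HOXC4 (-1.79), SNAI1 (-1.60), SOX4 (-0.53) and CBX2 (-0.53), the adhesion and matrix genes LAMB1 (-1.26), DCHS1 (-0.73) and CNTN1 (-0.68), the chaperones HSPA8 (-0.44) and HSP90AB1 (-0.35), the glycolysis gene PKM (-0.53) and RNR2 (-0.97). For MCM2, MCM3, LAMB1 and CDKN1A the library whose absence ended the call was BRM014 replicate 1 of SK-N-DZ, for MAOA it was BRM014 replicate 2 of IMR-32, and for RNR2 the call was lost with DESeq2.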

How the results depend on the processing

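Scaling, tool and filter changed little in the SK-N-DZ comparison. Against 2498 genes called, RLE scaling gave 2495, DESeq2 (local dispersion trend, no independent filtering) 2366, no filter 2299, a mean of at least 10 counts 2533, thinning to the shallowest library 2292 and the SK-N-DZ libraries alone 2522. With the replicate number as a block 2442 genes were called, and the replicate block moved no count of calls by over 1.5 times; the deviations of same-numbered libraries had a correlation of 0.031 over 6178 genes, so that the numbers do not pair them. Among the genes named, the call of CDKN1B and the difference call of CDH10 were lost under it. With 1 library left out, the lone library being assumed to vary like the other groups, between 1622 and 1893 genes were called, 820 to 1002 higher and 802 to 891 lower. With the correction for transcript GC share and length 1769 were called, 978 higher and 791 lower, and the cause was not tested.

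The difference between SK-N-DZ and the other lines was called for 424 genes and for 332 to 439 under the other settings, correction included (375). With 1 library left out it was called for 249 to 407, 115 to 231 upward and 128 to 222 downward.

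Some genes changed sign, none of them called under the setting that turned it. With the correction these were SMARCA4 (0.34), PHOX2A (0.21) and GFRA2 (0.25). With each library left out in turn MAOA ranged from -0.067 to 0.12, SLC18A2 from -0.40 to 0.26 and SMARCA2 from -4.27 to 1.55, and SMARCA2 stood at -0.65 after thinning. SLC18A1 ranged from -4.26 to 0 and so lost its direction without turning. The cause was not tested. PHOX2A, FASN and ACTG1 lost their call with the correction, CCND3 and LMO1 each with 1 library left out and CDKN1B under 6 settings. The other called genes whose levels the text gives kept their calls under each alternative in which they were tested. Depth limits what can be said of genes with few counts in the BRM014 libraries, such as TH, RET, JAG2 and SMARCA2.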

Other observations

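Other gene groups changed in part. Of 31 splicing factor genes 6 rose and 3 fell, while with the composition correction 2 rose and 9 fell. HNRNPF, which binds G-rich RNA, was at 388 and 363 CPM with DMSO and 195 and 207 with BRM014 (-0.90, adjusted p = 1.72e-08), and HNRNPA2B1 at 904 and 782 and 1240.2 and 1216 (0.54, adjusted p = 4.2e-07), with the groups apart in both. Of 16 genes of the unfolded protein response 1 rose and 6 fell. Those that fell numbered 3 without BRM014 replicate 1 and 2 without DMSO replicate 1, and none rose without BRM014 replicate 1 or DMSO replicate 2. With the correction 3 fell and none rose. HSPA5, the chaperone BiP of the endoplasmic reticulum, went from 628 and 589 to 340.3 and 368 CPM (-0.78, adjusted p = 6.44e-07). Of 15 genes of the insulin-like growth factor axis 3 rose and 4 fell (2 fell without DMSO replicate 2), or 5 and 2 with the correction, and IGF2BP3, an oncofetal RNA-binding protein, went from 138 and 139 to 255 and 251 CPM (0.87, adjusted p = 3.31e-06). Of 8 replication-dependent histone genes with enough counts 1 rose, HIST2H2BE, from 17.4 and 14.9 to 55.8 and 75.8 CPM (2.03, adjusted p = 0.000559), and none fell. Most such histone transcripts carry no poly(A) tail, which the capture on poly(dT) needs.

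Among single regulators, MXD1, a MAX partner that opposes MYC, went from 47.9 and 53.4 to 126 and 114 CPM (1.24, adjusted p = 4e-05), and the Kruppel-like factor KLF6 from 73.1 and 72.7 to 157 and 154 (1.09, adjusted p = 5.17e-05). Of 4 angiogenic factor genes 2 fell, with any 1 library left out too. VEGFA fell from 44.9 and 52.3 to 14.6 and 3.79 CPM (-2.41, adjusted p = 6.79e-05). In these 3 genes the groups stood apart. The genes in these paragraphs were named after their values were seen.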
